A study of Caenorhabditis elegans with 357 samples.

Results

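The ground-like genes (grl) and the groundhog genes (grd) of Caenorhabditis elegans were followed through the fourth larval stage (L4), the last larval stage before the adult molt. Every gene listed for both strains with a symbol of grl or grd and a number was taken as a member, which gave 47 genes, 31 grl and 16 grd, of the 19364 genes listed for both. The data are RNA sequencing libraries of 357 single whole animals. The tph-1 group held 164 animals of strain MT15434, which carries tph-1(mg280), a mutation of the tryptophan hydroxylase that makes serotonin, on chromosome II. The rest were animals of N2, the wild-type laboratory strain. Animals of both strains grew alone from the egg on agar with UV-killed OP50 bacteria, and each was labelled with the minutes it had spent in L4, which ran from 9.59 to 596.0 min in tph-1 and from 10.7 to 599.2 min in N2. Each library is 1 animal, so the values are sums over all its tissues, and fewer cells of a type and less RNA per cell cannot be told apart.

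Hedgehog is a secreted signal in flies and vertebrates, and C. elegans has no clear Hedgehog or Smoothened gene but many genes that are related to Hedgehog. Those of the warthog, groundhog, ground-like and quahog families encode small secreted proteins with cysteine-rich domains, many of which are made by cells that face the cuticle or line openings in it. The proteins that resemble the Hedgehog receptor Patched and the exporter Dispatched are also numerous in the worm, and several are needed for molting, the cycle in which each larval stage makes a new cuticle and sheds the old one.

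The members lie on chromosome V (26 genes), IV (10), X (5), III (4) and I (2) of the assembly WBcel235. Several are close neighbours. On chromosome IV, grd-13 (3438312 to 3439507), grd-3 (3439655 to 3440453) and grd-10 (3441055 to 3441841) follow each other on the plus strand, 148 and 602 bases apart. On chromosome X, grd-14 (8500021 to 8501037) lies 185 bases from grd-4. The genes grl-28, grl-29, grl-30 and grl-31 form a group on chromosome V, with grl-27 (3575055 to 3575859) 17277 bases from grl-31. Exons of some members share bases with a gene on the other strand, 27 of 972 bases in grl-15 and 18 of 972 in grl-10. The shares are larger in some weak members, 112 of 682 bases in grd-15 and 78 of 593 in grl-22. For grd-15 and grl-22 the gene on the other strand had the higher mean level. Exons of grd-12 and grl-24 also share bases with a gene on the same strand. The use of strand in counting is not given in the sources used here, so reads in shared bases cannot be told apart. Their part in the levels of these members was not tested.

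Of the 47 members, 29 reached 5 RPM (reads of a gene per 1000000 reads in all listed genes) in at least 10% of the animals, the level required for a test, as did 14293 genes in all. The other 18 were grd-4, grd-7, grd-8, grd-16, grl-3, grl-8, grl-9, grl-11, grl-17, grl-19, grl-20, grl-23, grl-24, grl-26, grl-28, grl-29, grl-30 and grl-31. Their means within a strain lay between 0.129 and 2.47 RPM, and each had a read in 53 to 144 tph-1 animals and in at least 50 N2 animals. Each read was worth 0.193 to 2.28 RPM in tph-1 and 0.0866 to 1.70 RPM in N2, from 437993 to 5175666 and from 587469 to 11544404 reads in genes per animal, so these genes sat at the level of a few reads in most animals. Single animals held more, up to 72 reads of grl-30 in tph-1 and 57 in N2, and late tph-1 animals reached 37.2 RPM of grl-30 and 16.5 RPM of grl-28. Close neighbours could differ: grd-4 averaged 1.71 ± 1.98 RPM in tph-1 and 1.21 ± 1.34 RPM in N2 (SD over all animals), while grd-14 beside it had a late median of 763 RPM in tph-1 and 738 RPM in N2 (500 to 550 min). Without the filter on low values, the time test described below (limma, adjusted over all 19364 genes) called 7 of these 18 in tph-1, against 66.1% of all genes, and 2 in N2, grd-4 and grl-8, against 40.3%. The 7 were grd-4, grd-8, grd-16, grl-3, grl-8, grl-17 and grl-30, with fitted ranges of 1.01 to 1.53 log2 units. The 18 enter no other count below.

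The mutated gene, tph-1, had 0 RPM in the lowest, 1.81 in the median and 19.3 in the highest tph-1 animal, with no read in 28, and 0, 2.73 and 26.9 RPM in N2, with no read in 12. Where the counted reads lie relative to the mutation is unknown here, so this level does not check the labels. As a check of the whole animals, all marker genes of muscle, pharynx, intestine, neurons, germline, epithelia and glia had reads in both strains in every window of L4. The summed RPM of 7 epithelial markers was 310.3 to 758 (median 514) in early, 233 to 644 (422) in middle and 199 to 519.8 (313) in late tph-1 animals, and 424 to 898 (598), 314 to 1143 (581) and 172.7 to 548 (310.5) in N2. The 5 pharynx markers, also in summed RPM, had medians of 2985, 902 and 386 in tph-1 and 2824, 1167 and 569.7 in N2. Each list other than that of epithelia held 5 markers. A time course was called for 4 epithelial, 5 pharynx, 1 muscle, 4 intestine, 4 neuron, 3 germline and 5 glial markers in tph-1. In N2 it was called for 5, 5, 1, 3, 3, 2 and 4. Of all tested genes, 74.9% in tph-1 and 51.1% in N2 were called. The part that such shifts between tissues have in the results below was not tested.

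The ground-like and groundhog genes went up and down one after another through L4, and much the same members led the early, middle and late parts of the stage in both strains. A time course was called when a curve of the minutes passed limma's F test across all genes (Benjamini-Hochberg adjusted p under 0.05, with set, the number that follows the strain in each animal's label, as a covariate) and its highest and lowest fitted levels from 30 to 570 min were 1 log2 unit or more apart. By this rule 27 of the 29 tested members changed with time in tph-1, where 74.9% of all tested genes did, and 26 of 29 in N2, where 51.1% of all genes did. The median fitted range was 4.47 log2 units for the tested members and 1.40 for all tested genes in tph-1, and 4.69 and 1.03 in N2. A gene high in only part of L4 passes the filter on low values through that part alone, as grl-21 did with 5 RPM in 15.7% of animals. The filter thus favours wide ranges among the members kept. The 18 members under the filter, with fitted ranges of 0.24 to 1.53 in tph-1 and 0.18 to 1.37 in N2, are not in these medians. The members without a call were grd-9 (adjusted p = 0.0704, limma) and grl-22 (a fitted range of 0.98) in tph-1, and grd-9 (adjusted p = 0.498), grl-13 (0.129) and grl-25 (0.274) in N2.

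**Figure D1:**
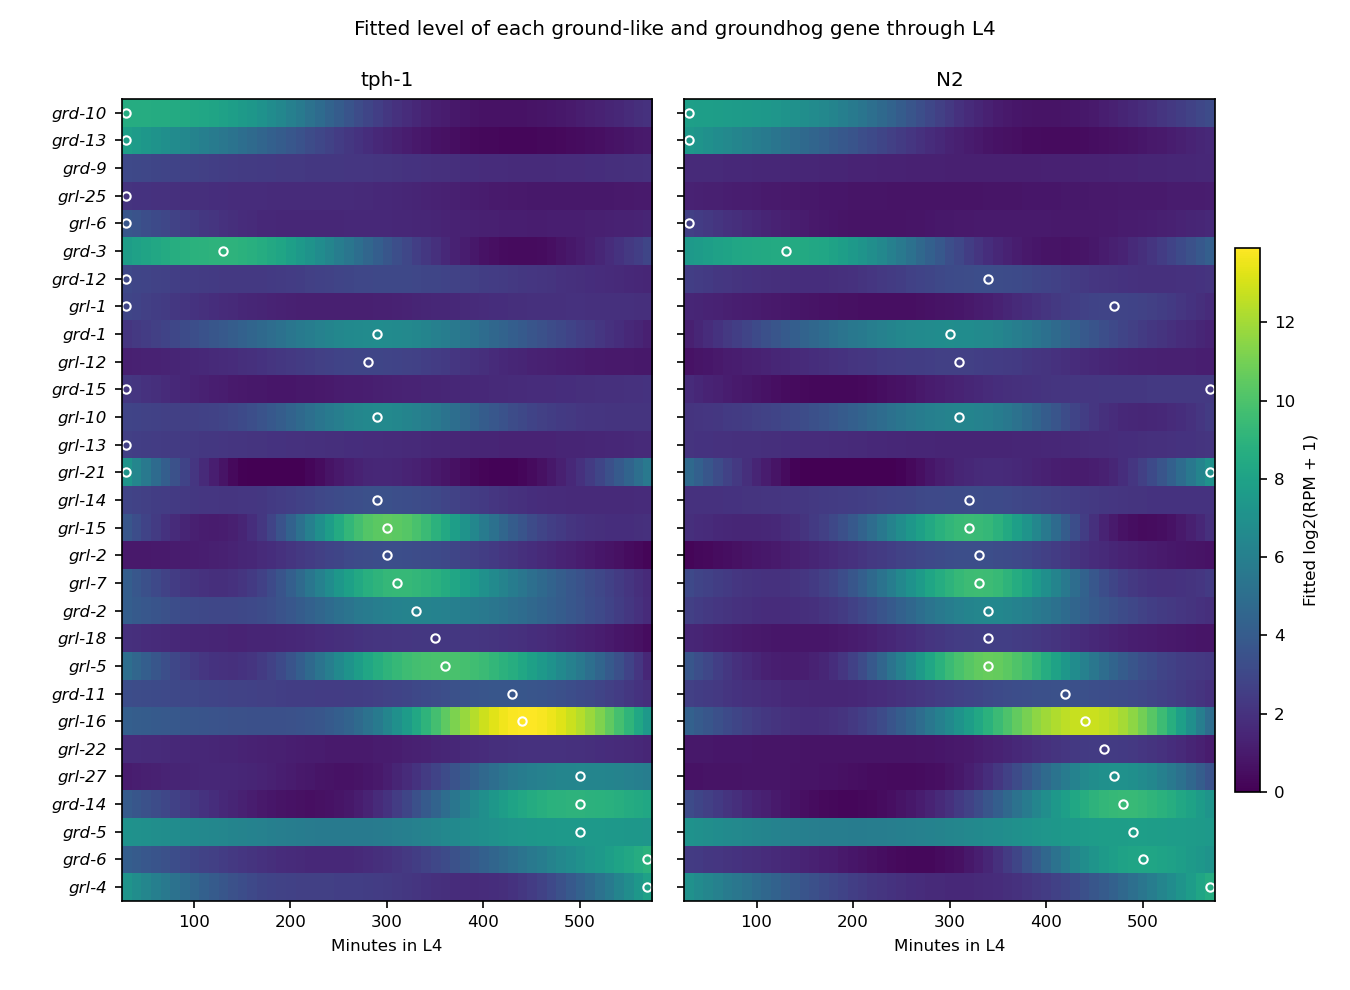
Fitted level of the 29 tested members against minutes in L4 in tph-1 (left) and N2 (right), as log2(RPM + 1) in colour; a white ring marks the peak of each called curve. Bands of high level pass from grd-10, grd-13 and grd-3 at the start to grl-15, grl-7 and grl-5 near 300 to 360 min, then to grl-16 at 440 min and to grd-14, grd-6 and grl-4 at the end.

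The first genes of the sequence were grl-21, grd-13, grd-10 and grd-3, all on chromosome IV. In the first 50 min of L4, grl-21 (10737474 to 10738191) had 55.4 RPM in the lowest, 902 in the median and 1589 in the highest of 9 tph-1 animals, and 1.47, 15.1 and 1796 RPM in 9 N2 animals. From 50 to 100 min its medians were 1.43 RPM in tph-1 and 0.934 RPM in N2. The gene was thus high in all 9 tph-1 animals and in part of the N2 animals at the start, and near the level of 1 read for most of the stage that followed. All 9 of those tph-1 animals were of the tph-1 set 4, while the 9 N2 animals came from several sets. The tph-1 levels in the first 50 min, of this gene and of the others, thus rest on 1 set.

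The 3 neighbouring groundhog genes fell later than grl-21, and not together. In the first 50 min grd-13 had 130.1, 327 and 470.4 RPM (lowest, median and highest) in 9 tph-1 animals and 91.5, 240.2 and 525 RPM in 9 N2 animals. Its median was 22.9 RPM in tph-1 and 21.5 RPM in N2 from 150 to 200 min. In the same 2 windows grd-10 had medians of 580.3 and 169.8 RPM in tph-1, and 420.0 and 138.9 RPM in N2. The fitted levels of both genes were highest at the first minute examined, 30 min, in both strains.

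The middle gene of the 3, grd-3, peaked after its neighbours, at 130 min in both strains. Its medians were 218 RPM in the first 50 min, 528 RPM from 100 to 150 min and 30.4 RPM from 250 to 300 min in tph-1, and 305, 438 and 23.6 RPM in N2. The fitted curve passed the midpoint of its log2 range on the way down by 190 min for grd-13 in both strains, by 240 min for grd-10 in tph-1 and 250 min in N2, and by 280 min for grd-3 in both strains. Without 1 of the tph-1 sets the tph-1 peak of grd-3 moved to 30 min, so its place after grd-10 and grd-13 rests on that set in tph-1, and in N2 the peak lay between 110 and 130 min whichever set was left out. The tph-1 set 4 held all the tph-1 animals of the first 50 min, so a tph-1 peak at 30 min in a fit without it is extrapolated.

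All 3 neighbours were lower late (400 min or later) than early (under 200 min). The late minus early change was -6.76 ± 0.48 for grd-3, -6.18 ± 0.38 for grd-10 and -4.77 ± 0.29 for grd-13 in tph-1 (log2 scale ± standard error, 47 late and 47 early animals), and -3.70 ± 0.52, -3.82 ± 0.41 and -3.68 ± 0.32 in N2 (77 late and 49 early animals). Each passed limma's test, with adjusted p of 3.04e-28, 2.13e-33 and 2.71e-33 in tph-1 and 3.00e-10, 1.39e-15 and 5.16e-21 in N2. Also lower late in tph-1 were grl-10 (-1.03 ± 0.26) and grd-1 (-1.02 ± 0.26), which made 5 of 29 against a background of 23.6% of all genes (3 with no set covariate, against 28.6%), while the 3 neighbours were all that fell in N2, where the background was 8.19%.

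The values of this contrast depend on the sets, more in N2 than in tph-1. The N2 sets 6, 7 and 8 held no early animals and 18, 8 and 45 of the late ones, and the N2 sets with animals of both windows held 1 or 2 late animals each. Each tph-1 set held animals of both windows, but unevenly. The tph-1 set 4 held 29 early animals and 1 late one, and the tph-1 sets 2 and 3 held 2 and 6 early and 21 and 18 late ones. With no set covariate the N2 changes were -6.63 for grd-3, -6.13 for grd-10 and -4.93 for grd-13, and the tph-1 changes -7.23, -6.75 and -5.36. The call and the direction were the same in both fits.

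**Figure D2:**
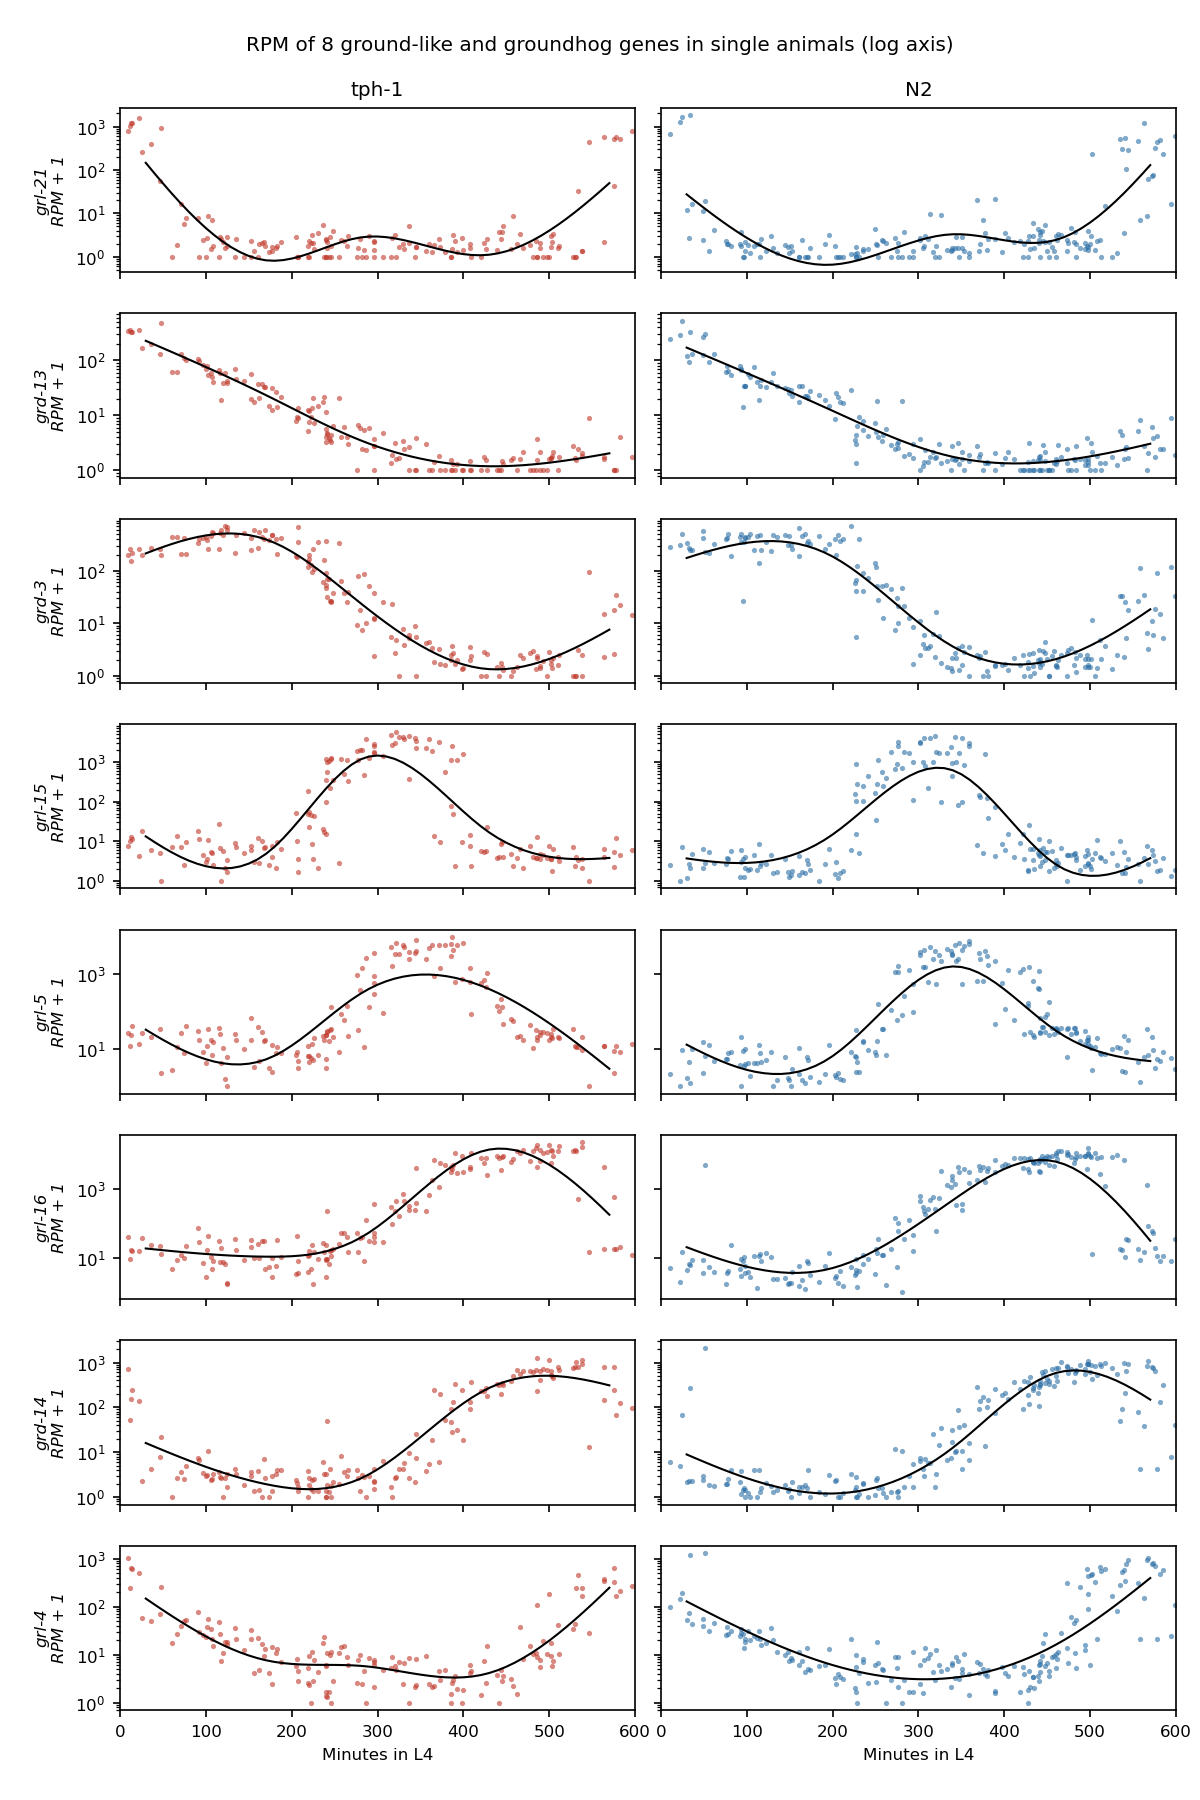
RPM + 1 (log axis) of 8 members in single animals against minutes in L4, tph-1 on the left and N2 on the right; each point is 1 animal and the line is the fitted curve. The points of grl-21 are high at both ends of L4, grd-13 and grd-3 leave the top before 300 min, grl-15 and grl-5 fill the middle, and grl-16 and grd-14 rise after it. The smooth curve runs below the sharp rises of grl-21 at the ends and of grl-15 in the middle.

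In the middle of L4 (200 to under 400 min) a group of 8 members stood above both ends in each strain. They were grl-15, grl-7, grl-5, grd-1, grl-10, grd-2, grl-2 and grl-12, and the same 8 were called in both strains, where the background of genes higher in the middle was 3.04% in tph-1 and 3.51% in N2. The strongest was grl-15 (chromosome III, 12232632 to 12236014). It had 361 RPM in the lowest, 3875 in the median and 5792 in the highest of 13 tph-1 animals from 300 to 350 min, and 82.3, 1657 and 4589 RPM in 20 N2 animals. Its medians from 150 to 200 min were 5.73 RPM in tph-1 and 0.865 RPM in N2, and from 400 to 450 min 4.60 and 4.14 RPM. From 300 to 350 min no animal of either strain overlapped the animals of its strain in the first 200 min.

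The middle minus both ends change of grl-15 was 5.67 ± 0.40 in tph-1 and 5.70 ± 0.34 in N2 (adjusted p = 7.19e-28 and 4.95e-36, limma). For grl-7 (chromosome V, 11344828 to 11347012) it was 4.14 ± 0.35 in tph-1 and 4.60 ± 0.32 in N2 (adjusted p = 6.91e-22 and 6.28e-30). For grl-5 (chromosome V, 4412748 to 4414663) it was 3.20 ± 0.49 and 4.16 ± 0.43 (adjusted p = 1.32e-08 and 1.58e-16). The groundhog gene grd-1 (chromosome X, 11109440 to 11115887), whose longest annotated transcript is 3817 bases against 972 for grl-15, changed by 2.85 ± 0.17 in tph-1 and 3.08 ± 0.22 in N2 (adjusted p = 7.46e-35 and 3.62e-29). The other 4 had changes from 1.07 (grl-12) to 2.80 (grl-10) in tph-1 and from 1.10 (grl-12) to 2.90 (grl-10) in N2. Among them grl-2 is known for its expression in the excretory duct and pore cells, and its change was 1.62 ± 0.14 in tph-1 and 1.76 ± 0.17 in N2.

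Within the middle group the members did not rise and fall at the same minutes. Midpoints of the rise were read only for members with a fitted range of at least 4 log2 units. The earliest of those read in this group was that of grd-1, which passed the midpoint of its fitted log2 rise at 140 min in both strains, against 200 min in tph-1 and 190 min in N2 for grl-10, 220 min in both for grl-15, 230 and 240 min for grl-7 and 240 and 250 min for grl-5. The fitted peaks came at 290 and 300 min for grd-1, 290 and 310 for grl-10, 300 and 320 for grl-15, 310 and 330 for grl-7, 330 and 340 for grd-2, and 360 and 340 for grl-5, with the tph-1 value before that of N2 for each gene. Neighbours in this order were not resolved: leaving out 1 set at a time moved the peak of grl-15 between 290 and 330 min in tph-1 and between 280 and 330 min in N2, and that of grl-7 between 310 and 340 min and between 310 and 350 min.

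From 350 to 400 min grl-5 had 604 RPM in the lowest, 5112 in the median and 9911 in the highest of 15 tph-1 animals, and 46.8, 2603 and 7589.6 RPM in 15 N2 animals. From 400 to 450 min its medians were 340.0 RPM in tph-1 and 77.4 RPM in N2. For grl-7 the medians of the same 2 windows were 946 and 63.4 RPM in tph-1, and 565 and 16.6 RPM in N2. Over these windows the medians of grl-15 were 1093 and 4.60 RPM in tph-1, and 125.6 and 4.14 RPM in N2. The medians of grl-15 were thus under 5 RPM in the window in which those of grl-5 still stood at 340.0 and 77.4 RPM.

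**Figure D3:**
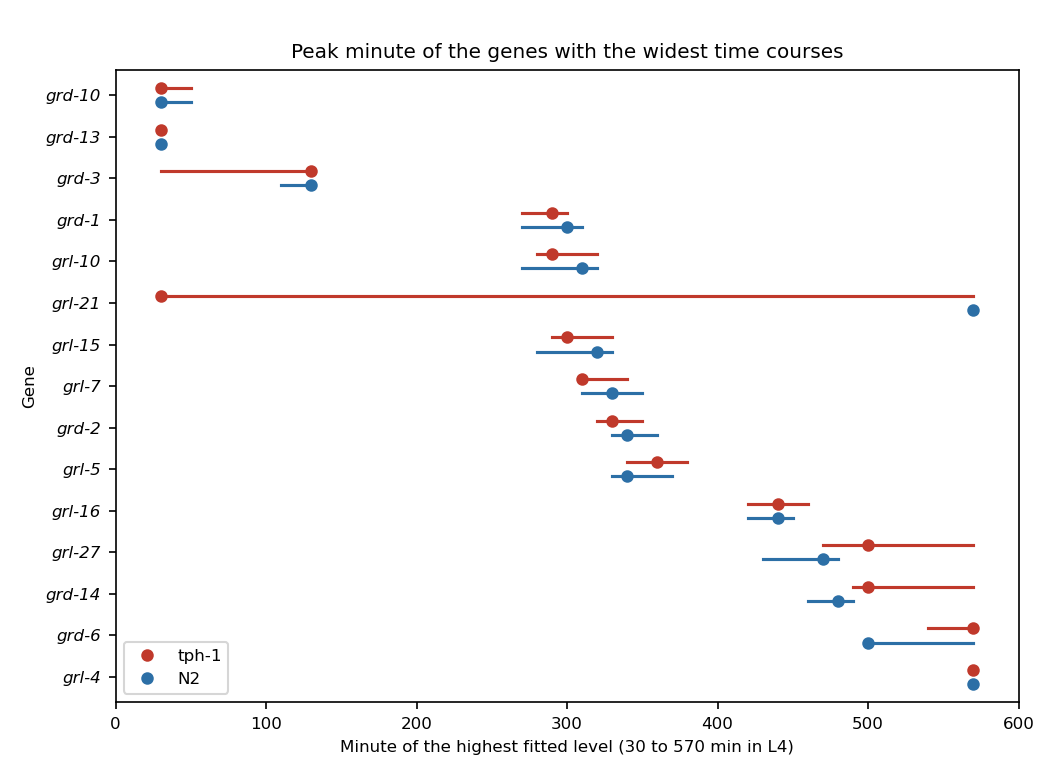
Minute of the highest fitted level of the 15 members with fitted ranges of at least 4 log2 units, with tph-1 above N2 in each row; points are the fits on all sets and lines span the fits that leave out 1 set. The points of both strains lie in the same part of L4 (early, middle or late) for all of these genes except grl-21, which was high at both ends and is placed at 30 min in tph-1 and at 570 min in N2.

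The most abundant member of all was grl-16 (chromosome I), which began to rise while the middle group was high. Its medians were 39.4 RPM from 250 to 300 min, 307 RPM from 300 to 350 min and 3898 RPM from 350 to 400 min in tph-1, and 16.7, 571 and 3415 RPM in N2. From 450 to 500 min it had 4398 RPM in the lowest, 12049 in the median and 20035 in the highest of 14 tph-1 animals, and 3959, 9474 and 15670.4 RPM in 25 N2 animals. Its medians in the first 50 min were 15.3 RPM in tph-1 and 5.21 RPM in N2. In the last 50 min they were under 17.1 RPM in both strains (7 tph-1 and 13 N2 animals), so that the gene had gone down again before the labelled end of the stage. Between these windows, from 500 to 550 min, the medians of the strains differed while their animals overlapped. There grl-16 had 13.2 RPM in the lowest, 13374.5 in the median and 23408 in the highest of 14 tph-1 animals, and 9.26, 2777 and 11593 RPM in 15 N2 animals. The fit placed its peak at 440 min in both strains, with a range over left-out sets of 420 to 460 min in tph-1 and 420 to 450 min in N2, while the highest 50-min median was that of 500 to 550 min in tph-1 and of 450 to 500 min in N2.

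Late minus early, grl-16 was higher by 7.28 ± 0.73 in tph-1 and 4.07 ± 0.94 in N2 (adjusted p = 2.22e-17 and 9.27e-05, limma), and by 8.25 and 8.41 with no set covariate. The same direction was called for grd-14 (6.65 ± 0.49 in tph-1, 4.88 ± 0.58 in N2), grl-27 (4.81 ± 0.45 and 3.81 ± 0.61) and grd-6 (4.61 ± 0.48 and 4.47 ± 0.63). Those 4 were all that rose in tph-1, against a background of 10.1% of genes, and N2 added grl-1 (1.01 ± 0.29), for 5 of 29 against a background of 11.4%. With edgeR on the recovered reads 11 members were higher late in tph-1, against 15.1% of all genes, and 12 in N2, against 15.4%. The adjusted p of grd-14, grl-27 and grd-6 were 3.30e-27, 2.10e-19 and 2.04e-16 in tph-1, and 2.47e-13, 2.66e-08 and 3.50e-10 in N2.

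These 3 genes rose after grl-16. From 400 to 450 min, when the median of grl-16 was already 8139.5 RPM in tph-1 and 6574 RPM in N2, the medians of grd-14 were 254 and 313 RPM, those of grl-27 16.5 and 33.2 RPM and those of grd-6 10.0 and 28.7 RPM. From 500 to 550 min grd-6 (chromosome V, 9221866 to 9224354) had 2.64 RPM in the lowest, 991 in the median and 2001 in the highest of 14 tph-1 animals, and 16.9, 791 and 1730.1 RPM in 15 N2 animals. In the same window grl-27 had medians of 429 RPM in tph-1 and 259 RPM in N2, and grd-14 of 763 and 738 RPM. The midpoint of the fitted rise came at 340 min in tph-1 and 320 min in N2 for grl-16, at 360 and 370 min for grd-14, at 370 and 380 min for grl-27, and at 440 and 400 min for grd-6.

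The last genes to rise were grl-4 and grl-21, and both had also been high at the start. Single animals of the first 50 min were high in grd-14 and grd-6 too. There grd-14 had a median of 51.8 and a highest value of 703 RPM in tph-1, and 2.03 and 276 RPM in N2. For grd-6 these were 16.7 and 581 RPM in tph-1, and 2.04 and 125 RPM in N2. The medians of grl-4 (chromosome IV, 7309838 to 7310760) were 254 RPM in the first 50 min, 1.46 RPM from 350 to 400 min and 331 RPM in the last 50 min in tph-1, and 72.2, 3.09 and 486 RPM in N2. It stood lower in the middle than at both ends, with a change of -2.07 ± 0.30 in tph-1 and -2.72 ± 0.37 in N2 (adjusted p = 1.56e-09 and 2.36e-10, limma). In the last 50 min grl-21 had 1.22 RPM in the lowest, 515 in the median and 782 in the highest of 7 tph-1 animals, and 6.21, 231 and 1178 RPM in 13 N2 animals. The ends of L4 differed in other members: grd-13, which had medians of 327 and 240.2 RPM in the first 50 min, had medians of 0.609 RPM in tph-1 and 1.72 RPM in N2 in the last 50 min, and grd-10 had 3.52 and 8.51 RPM.

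Lower in the middle than at both ends were 7 of 29 members in tph-1, against a background of 2.55% of genes, and 8 of 29 in N2, against 3.02%. In both strains these were grd-14 (-2.81 ± 0.32 in tph-1 and -2.23 ± 0.32 in N2), grd-6 (-2.45 ± 0.32 and -2.64 ± 0.35), grl-27 (-2.07 ± 0.30 and -1.51 ± 0.34), grl-4, grl-21 (-1.19 ± 0.40 and -1.22 ± 0.42), grd-10 (-1.50 ± 0.25 and -1.73 ± 0.23) and grd-13 (-1.28 ± 0.19 and -1.51 ± 0.18). The eighth in N2 was grd-3 (-1.23 ± 0.29, adjusted p = 0.000272). The contrast sets the middle against the mean of the ends, so it also holds for genes that are high at 1 end alone, as grd-10 and grd-13 were at the start and grl-27 was late.

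The N2 animal of set 1 labelled 51.8 min stood apart from the other 22 N2 animals under 100 min. It had 4998 RPM of grl-16, where the highest of the others had 21.98 RPM, 2614 RPM of grd-6 (125 RPM), 2128 RPM of grd-14 (276 RPM) and 1309.9 RPM of grl-4 (1186 RPM). Its grd-13, at 300.3 RPM, and grd-10, at 408 RPM, lay within the range of the others. Without it the N2 late minus early changes were 4.21 for grl-16, 5.03 for grd-14 and 4.62 for grd-6.

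At any time a few members made up most of the family's transcripts. Per kilobase of the longest annotated transcript, grd-3 held 46.3% of the summed RPM per kb of all members from 100 to 200 min in tph-1 and 48.3% in N2, with grd-10 next at 23.3% and 23.8%. From 300 to 400 min grl-5 held 48.5% in tph-1 and 47.5% in N2, and grl-15 22.8% and 19.3%. From 400 to 500 min grl-16 held 73.7% and 69.2%, and grd-14 10.0% and 12.2%. The 2 leading members were thus the same in both strains in each of these windows, but not in the first 100 min, which grl-21 (21.9%) and grd-10 (21.5%) led in tph-1 and grd-3 (20.4%) and grd-10 (19.3%) in N2. The family's summed RPM had medians of 1048 in tph-1 and 772 in N2 from 100 to 200 min, 10949 and 7869 from 300 to 400 min, and 10512 and 2737 from 500 to 600 min. In that last window it ran from 743 to 28474 in 21 tph-1 animals and from 269 to 14981 in 28 N2 animals. Of these, 7 tph-1 and 13 N2 animals lay from 550 min on, where the median of grl-16 was low again in both strains.

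The groundhog gene grd-5 stayed on throughout. It had at least 5 RPM in every animal, and its lowest and highest medians over 50-min windows were 35.4 RPM (200 to 250 min) and 194 RPM (500 to 550 min) in tph-1, and 55.5 and 294 RPM in the same windows in N2. Its fitted range was 1.77 log2 units in tph-1 and 1.91 in N2.

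The remaining called members were weak and peaked with less certainty. In both strains grl-2, grl-12, grl-14 and grl-18 peaked in the middle window, at 300, 280, 290 and 350 min in tph-1 and 330, 310, 320 and 340 min in N2, and grd-11 peaked late, at 430 and 420 min. The gene grl-18 is known as a marker of socket glia of the head sense organs, and its highest 50-min median was 3.97 RPM in tph-1 and 6.65 RPM in N2. The gene grl-6 peaked at 30 min in both strains. The peaks of 4 called members lay in different windows: grl-1, grd-15 and grl-21 peaked early in tph-1 and late in N2, and grd-12 early in tph-1 and in the middle in N2. The tph-1 peaks of these 4 moved to another window when 1 set was left out (as far as 480 min for grl-1, 570 min for grd-15 and grl-21, and 310 min for grd-12). The peaks of grl-18, grd-11 and grd-5 in tph-1 also moved, to 30 min, when 1 set was left out, and that of grd-11 in N2 to 390 min. Where the set left out is the tph-1 set 4, which held all the earliest tph-1 animals, a peak at 30 min is extrapolated.

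Of the 25 members with a call in both strains, 21 peaked in the same window, and 18 of these kept it in both strains whichever set was left out. The fitted peak was earlier in tph-1 for 12, later for 7 and at the same minute for 6, on a grid of 10 min, with a median difference of 0 min. For the 10 members that peaked in the middle window in both strains the median tph-1 minus N2 difference was -20 min, with 8 earlier in tph-1, and it was 0 min with a more flexible curve (6 in place of 4 degrees of freedom). The difference of peak minutes has no test.

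No member passed the comparison of strain over the whole stage. Since each set holds 1 strain, the 4 tph-1 sets were compared with the 8 N2 sets, after the minutes were taken out. By limma with an adjusted p under 0.05, 0 of 29 members were higher in tph-1, where 0.287% of all genes were, and 0 were lower, where 0.147% were. At an unadjusted p under 0.05 there were 9, all higher in tph-1, where 7.19% of all genes were higher and 20.4% lower. With edgeR over animals, which takes animals of a set as independent, 14 members were higher, against 33.9% of all genes, and 1 lower, against 25.1%. Of the 29, 26 lay above 0, with a median tph-1 minus N2 difference of 0.24 log2 units, where the median of all genes was -0.10. With libraries rescaled by the median of 5222 genes above 1 RPM in every library, 28 lay above 0, with medians of 0.36 for the members and 0.13 for all genes. The share of all genes above 0 was not counted, and the members share the same sets, so they are not independent.

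**Figure D4:**
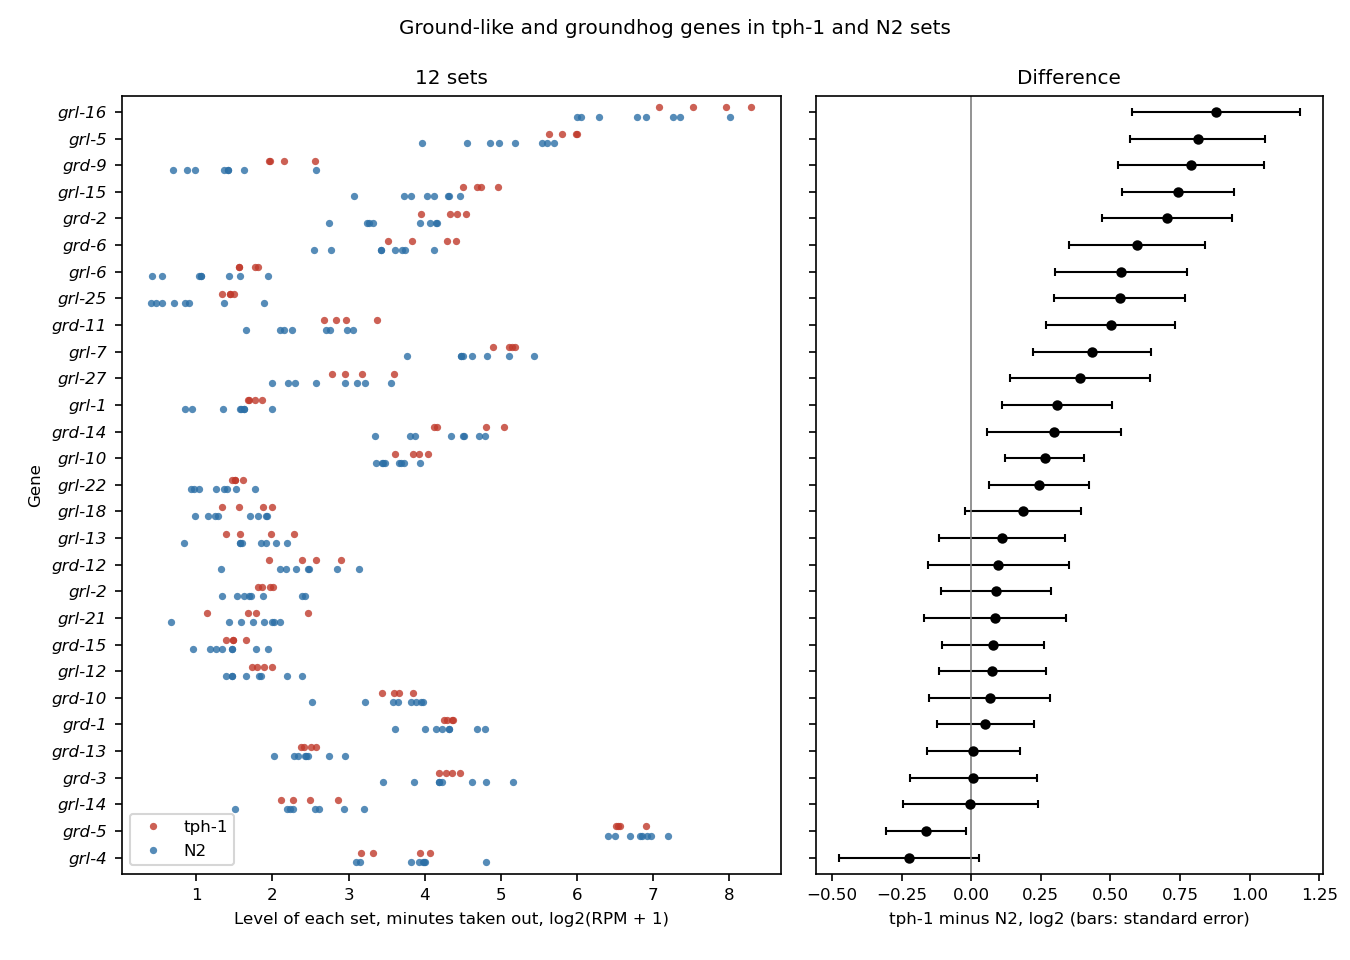
Left, level of each tested member in the 4 tph-1 and 8 N2 sets with the minutes taken out, in log2(RPM + 1), 1 point a set; right, tph-1 minus N2 difference of the set means with its standard error. The differences run from -0.22 (grl-4) to 0.88 (grl-16).

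The smallest p belonged to grl-15. Its set levels were 4.50 to 4.97 log2 units in tph-1 and 3.07 to 4.47 in N2, and the difference was 0.74 ± 0.20 (adjusted p = 0.0907, limma). The next was grl-5, with 0.81 ± 0.24 (adjusted p = 0.0923) and set levels of 5.64 to 6.01 in tph-1 and 3.96 to 5.70 in N2. The differences of grd-9 (0.79 ± 0.26), grd-2 (0.70 ± 0.23), grl-16 (0.88 ± 0.30), grd-6 (0.60 ± 0.24), grl-6 (0.54 ± 0.24), grl-25 (0.53 ± 0.23) and grd-11 (0.50 ± 0.23) had adjusted p from 0.102 to 0.168. Without the N2 set 7, 6 members passed, where 3.81% of all genes were higher: grd-9, grl-5, grl-6, grl-15, grl-16 and grl-25, with differences of 0.65 to 1.04.

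A transcriptional age fitted to the N2 animals on 14264 genes, with the members left out, minus the labelled minutes had a median of 55.5 min in tph-1 and of -8.35 min in N2. The medians of the sets were 20.2 to 77.6 min in the 4 tph-1 sets and -67.8 to 31.7 min in the 8 N2 sets, which overlap (difference of the set means 54.9 min, two-sided exact permutation p = 0.0121). The N2 animals were predicted from the other N2 sets and the tph-1 animals from all of them. With that age in place of the minutes the difference was -0.04 for grl-15 (adjusted p = 0.979, limma), -0.19 for grl-16 (0.891) and 0.07 for grl-5 (0.967), and it was 0.81 for grd-9 (0.257), 0.60 for grl-6 (0.268) and 0.56 for grl-25 (0.257).

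No member passed the test of strain by time either, limma's F test of the interaction with the curve over animals. It called 0 of 29 members, where 2.17% of all genes were called. At an unadjusted p under 0.05 there were 9, against 14.6% of all genes, and edgeR on the recovered reads called 2, grl-1 and grl-16, against 4.32%. The smallest adjusted p were 0.0537 for grl-1, 0.0986 for grd-3, 0.104 for grd-10, 0.128 for grd-6, 0.164 for grl-4 and 0.222 for grl-16. Single sets decided this count: it was 7 without the tph-1 set 3 (4.88% of all genes), 1 without the tph-1 set 4 (3.39%), 3 without the N2 set 1 (3.19%) and 4 without the N2 set 8 (2.49%).

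With the 3 windows in place of the curve, 2 members differed between the strains in their late minus early change, grd-3 by -3.06 ± 0.72 and grd-10 by -2.36 ± 0.57 (tph-1 minus N2, adjusted p = 0.0156 and 0.0162, limma), where 1.44% of all genes did. In the middle minus both ends change 0 members and 0.035% of genes differed. Without the set covariate the same differences were -0.60 ± 0.53 and -0.62 ± 0.41 (adjusted p = 0.397 and 0.247), and 7 other members were called, against 27.2% of all genes. From 400 to 450 min both genes were near single reads in both strains, at medians of 0.619 RPM in tph-1 and 0.828 RPM in N2 for grd-3 and 0.851 and 1.08 RPM for grd-10.

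Other genes of the hedgehog-related pathway were described from lists. Of all tested genes, 74.9% in tph-1 and 51.1% in N2 changed with time. In the middle 3.04% and 3.51% were higher than at both ends, and 2.55% and 3.02% lower. Of 11 tested other hedgehog-related genes (the warthogs, qua-1 and hog-1), 10 changed with time in each strain, and 8 were higher and 0 lower in the middle than at both ends in each. Their largest changes were those of wrt-10 (late minus early, -5.44 ± 0.73) and wrt-1 (middle minus both ends, 5.12 ± 0.33) in tph-1, and of qua-1 (4.45 ± 0.27) and wrt-1 (4.15 ± 0.31), both middle minus both ends, in N2. Of 26 tested genes of the Patched type, 21 changed with time in tph-1 (74.9% of all genes), with 5 higher and 1 lower in the middle. In N2 22 did (51.1% of all genes), with 7 higher and 2 lower. Here ptr-10 (-2.82 ± 0.34) and ptr-8 (-2.65 ± 0.30) led in tph-1, both lower late than early, and ptr-4 (2.81 ± 0.27) and ptc-3 (2.09 ± 0.23) led in N2, both higher in the middle. The fitted peak of ptr-4, which is needed for molting, lay at 260 min in both strains, before the 300 and 320 min of grl-15.

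The Dispatched-like gene che-14, which acts in secretion at the apical side of epithelia, was higher in the middle in both strains, by 1.34 ± 0.15 in tph-1 and 1.48 ± 0.16 in N2. A time course was called for 2 of the 2 Dispatched-like genes in tph-1 and for 1 in N2, against 74.9% and 51.1% of all genes. The Gli homolog tra-1 had fitted ranges of 0.64 and 0.63, under the range required, and was not called. Of 11 transcription factors tied to molting, 10 changed with time in each strain. Lower late than early were 6 in each strain, against 23.6% of all genes in tph-1 and 8.19% in N2. The largest of these changes was that of myrf-1, -3.67 ± 0.17 in tph-1 and -3.35 ± 0.21 in N2, followed by elt-3 (-2.21 ± 0.23) in tph-1 and, in the middle contrast, by lin-42 (1.86 ± 0.15) in N2. No gene of these lists was called between the strains. For strain by time 3 genes of the Patched type were called, against 2.17% of all genes.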

How the data were processed

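Single animals in L4 were sequenced as polyA RNA with 1 library each, by SMART-seq2 and Nextera tagmentation per the labels and the series' design text, after each was cut with a needle. Per the submitters' processing notes, STAR 2.7.9a was used; for the build, annotation, counting and strand, the sources used here give nothing. The deposited values are RPM from the authors' 2 tables, 1 per strain, whose reads came out whole for 100% of values within 0.1 reads. Median depth was 1764815 reads in tph-1 and 2922062 in N2. These are PCR reads without molecular identifiers, not counts of molecules, so the counting error from depth is only a lower limit of a library's error. Names and coordinates are from Ensembl 115.

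The number after the strain in each title splits the animals into 4 tph-1 and 8 N2 sets, undefined in the labels and treated as runs. Tests were limma 3.58.1 with trend in R 4.3.3 on log2(RPM + 1), a scale that understates changes of low genes, over genes with at least 5 RPM in 10% of animals, adjusted over all of them. Time was a natural spline with 4 degrees of freedom plus set. Windows were early (under 200 min), middle and late (from 400 min), called at a change of at least 1. Time and interaction p-values are over animals, and strain p-values over 12 sets. edgeR 4.0.16 ran on the recovered reads as an alternative. Transcriptional age, trained on N2, came from scikit-learn 1.9.0 (partial least squares, 5 components). Its exact permutation test over sets was added after seeing the data. The fits were also run on simulated counts. These held no differences between sets, so they check neither the set covariate nor the strain test against such differences. Members and lists were chosen with earlier results of these data known. Members named with full statistics are the 4 largest calls per strain, contrast and direction, the 6 smallest interaction p and the 3 highest RPM per kb in each window; other members were named by peak, and non-members by the 2 largest changes per list. The grl-15, grl-5 and 51.8 min animal details, and those of the 9 members with an unadjusted strain p under 0.05, were chosen after their values were seen. Promoter letters were not analysed here.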

Additional observations from a re-analysis of the deposited data

Results flagged for a closer look

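Of 58 groups of sets (29 members in 2 strains, minutes taken out, log2 units), 3 held a set far from the rest of its strain; chance alone gives about 1 in 20. The level of grd-5 in the tph-1 set 4 was 6.915, where the next set stood at 6.572. The level of grl-13 in the N2 set 5 was 0.8396, below the next at 1.574. The level of grl-21 in the N2 set 2 was 0.669, below the next at 1.43.

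The late minus early change differed between the strains for 2 members by limma's test of the difference with set as a covariate, where 1.44% of all genes did: by -3.058 for grd-3 (adjusted p = 0.01561) and by -2.357 for grd-10 (adjusted p = 0.01623), tph-1 minus N2. Without the set covariate the differences were -0.60 and -0.62, and neither passed.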

How the results depend on the processing

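Of 194 comparisons of a count of members with its value under an alternative, 167 stayed within 1.5 times and 27 did not. The count lower late than early in tph-1, 5, was 3 with a pseudocount of 5 (8.22% of all genes) and with rescaled libraries (6.31%). It was also 3 with edgeR (7.47%) and with no set covariate (28.6%), and 3 to 6 when 1 set was left out (20.4% to 32.3%). With edgeR, 11 members in tph-1 (15.1% of all genes) and 12 in N2 (15.4%) were higher late. It placed 4 members lower in the middle in tph-1, against 2.67%. With no set covariate 9 were higher late in N2, against 12.3%. Members higher in tph-1 over N2, 0 as reported, were 14 with edgeR over animals (33.9% of all genes), and 1 was lower (25.1%). With limma over animals 13 were higher (20.1%) and 1 lower (43.6%). The count higher was 2 with sets weighted by animals (1.69%) and 6 with sets 1 to 4 only (6.25%). It was 0 to 6 when 1 set was left out (0.14% to 3.81%). With transcriptional age grl-15 and grl-16 turned to -0.0399 and -0.192. Strain by time, 0 as reported, gave 2 with a pseudocount of 5 (3.81% of all genes) and 2 with edgeR (4.32%). It gave 1 with 6 degrees of freedom (2.41%) and 0 to 7 when 1 set was left out (1.39% to 4.88%). With windows, chosen after seeing the data, it gave 2 for late against early with set (1.44%). Without set it gave 7 for late against early (27.2%) and 3 for the middle, where the share of all genes was not counted. The cause of these changes was not tested.

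With the replicate block, sets 1 to 4 paired by number gave 8 members higher in tph-1, against 9.31% of all genes. Correlations of same-numbered sets were 0.218, -0.0947, 0.0979 and -0.0186. With 4 sets they do not settle whether the sets share more than a number, and the main comparison did not pair them. Changes of named members between windows kept their direction under every alternative run; 2 lost the call, late minus early of grl-10 in tph-1 under 6 alternatives and the middle change of grd-14 in tph-1 under 1 (edgeR). Only animals from 50 to 550 min and N2 without the 51.8 min animal, both chosen after seeing the data, kept each count within 1.5 times. Depth limits the 18 members under the filter.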
